A study of Brassica oleracea with 12 samples.

Results

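CYP83A1 and CYP83B1 are cytochrome P450 genes of glucosinolate synthesis, and their mRNA was followed through leaf development in JC007-2B, a cultivar of ornamental kale, Brassica oleracea var. acephala. The deposited table holds 45714 gene entries, of which 3 carry either name. The 2 members are those with at least 1 FPKM (fragments scaled by transcript length and by all mapped fragments of the library) in at least 3 of 12 libraries, out of 27272 entries that reach this level. One is the CYP83A1 entry MSTRG.14539, which includes the annotated gene Bo4g130780 and reached 1 FPKM in 6 libraries. The other is the CYP83B1 entry MSTRG.26991, which reached it in 9 libraries and consists of 1 assembled transcript. This transcript carries no annotated identifier and no description, so it is CYP83B1 by the authors' gene name alone. The third entry, MSTRG.14540, is also named CYP83A1 and is also a single assembled transcript. It reached 1 FPKM in 1 library and stayed outside. The table gives no positions or sequences, and strand is not stated, so reads from an overlapping antisense transcript could not be told apart.

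The 12 libraries form 4 groups of 3. S1 is the leaf while all of it is red, and S2 the leaf once its margin has turned green around a red center, both sampled whole with the veins removed. S3_S is the green margin and S3_C the red center of the leaf at the third stage. All groups come from 1 cultivar, and no treatment or mutation separates them. Whether separate plants gave the 3 libraries of a group is not stated, so p-values measure only the spread between these samples, which may be technical.

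Glucosinolates are the sulfur-rich defense compounds of the cabbage family. They are stored in the leaf and are split by myrosinases when tissue is wounded. In Arabidopsis, CYP79 enzymes turn an amino acid into an aldoxime, and a CYP83 enzyme oxidizes the aldoxime further. CYP83A1 handles mainly aldoximes from chain-elongated methionine, the aliphatic branch. CYP83B1 handles mainly the tryptophan-derived aldoxime of the indolic branch, and thereby also draws on a precursor of auxin.

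Libraries did not sort cleanly by group. The first principal component of all tested genes held 45.2% of the variance, and 3 libraries lay far out on it, S1 replicate 2 at 130.8, S1 replicate 3 at 128.8 and S3_S replicate 3 at 77.7. The other 9 libraries lay between -99.2 and 1.77, S1 replicate 1 among them at -35.9. Over all tested genes, the highest correlation of S1 replicate 1 with any library was r = 0.941, with replicate 2 of S2. For S3_S replicate 3 it was r = 0.912, with replicate 3 of S1. Both thus resemble a library of another group more than those of their own. The same held for every other library except S1 replicates 2 and 3, which were closest to each other. Whether any label was exchanged was not tested. Summed FPKM lay between 426981 and 470320. Absolute depth is unknown, and depth relative to S1 replicate 1, read from the spacing of values under 0.15 FPKM, lay between 0.664 and 1. LHCA4, a light-harvesting protein gene and the one matched marker of 5 for green leaf tissue, was at 229 FPKM or more in all 12 libraries.

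CYP83A1 was high in 2 libraries of the red S1 leaf and low in the third. It had 0.0602, 23.5 and 9.76 FPKM in S1 replicates 1, 2 and 3 and 0.351, 0.471 and 0.908 FPKM in the S2 libraries. In the S3_S margin it had 1.16, 0.507 and 2.79 FPKM, and in the S3_C center 1.85, 0.398 and 1.42 FPKM. S1 thus holds both the highest and the lowest of the 12 values, and its range overlaps that of every other group. S1 replicates 2 and 3 stand above all other libraries, and the highest value outside S1 is that of S3_S replicate 3. Of the summed CYP83A1 FPKM, 77.2% was in S1 and 54.4% in S1 replicate 2.

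CYP83B1 was highest in the same library but spread differently over S1. It had 3.69, 23.1 and 4.47 FPKM in S1 replicates 1, 2 and 3 and 0.574, 3.27 and 2.38 FPKM in the S2 libraries. In the S3_S margin it had 1.68, 0.881 and 1.34 FPKM, and in the S3_C center 0.719, 2.33 and 4.09 FPKM. Each S1 library lies above each S2 and each S3_S library. S3_C overlaps S1 through its replicate 3. S3_S replicate 3, which had the third highest CYP83A1 level, was not high for CYP83B1. S1 replicate 2 alone held 47.6% of the summed CYP83B1 FPKM.

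**Figure D1:**
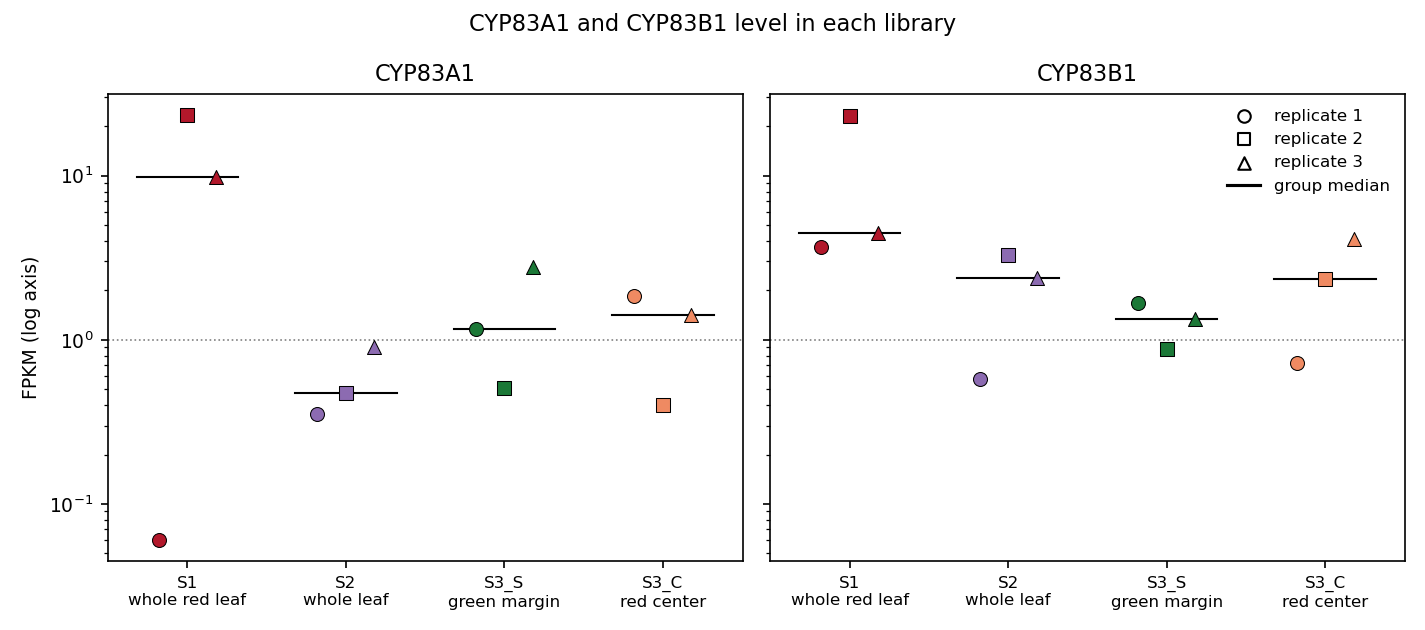
FPKM of CYP83A1 (left) and CYP83B1 (right) on a log axis for the 12 libraries, by group, with the replicate number as symbol, the group median as a line and 1 FPKM dotted. CYP83A1 spans 0.0602 to 23.5 within S1, while the CYP83B1 values of S1 start at 3.69.

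The second CYP83A1 entry was nearly flat. It ranged from 0.485 to 1.15 FPKM over the 12 libraries, with means of 0.922 ± 0.243 in S1, 0.609 ± 0.0842 in S2, 0.681 ± 0.181 in S3_S and 0.709 ± 0.237 in S3_C (SD, n = 3 each). Its highest value was also in S1 replicate 2. In S1 replicate 1 it was at 0.667 FPKM, above the 0.0602 FPKM of the CYP83A1 member in that library.

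S2, S3_S and S3_C were each set against S1 with limma on log2(FPKM + 1), fitted to all tested genes and 12 libraries, with Benjamini-Hochberg adjustment. Fold changes are on this scale and depend at such low levels on the FPKM added. With 0.1 in place of 1 FPKM, the change of CYP83A1 was -2.39 in S2, -1.36 in S3_S and -1.55 in S3_C against S1, and that of CYP83B1 -2.05, -2.44 and -1.86. Neither member passed an adjusted p of 0.05 in any of the 6 comparisons between groups.

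CYP83A1 averaged 0.577 ± 0.293 FPKM in S2 and 11.1 ± 11.8 FPKM in S1 (SD, n = 3 each). The log2 fold change was -2.07 (SE 0.90, 95% interval -4.05 to -0.09, limma adjusted p = 0.403). Its mean was 1.49 ± 1.18 FPKM in S3_S, with a log2 fold change over S1 of -1.499 (interval -3.48 to 0.48, limma adjusted p = 0.824). It was 1.22 ± 0.747 FPKM in S3_C, with -1.62 over S1 (interval -3.60 to 0.36, limma adjusted p = 0.292). The S1 libraries spread by more than their own mean.

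CYP83B1 averaged 2.08 ± 1.38 FPKM in S2 and 10.4 ± 10.99 FPKM in S1 (SD, n = 3 each). The log2 fold change was -1.59 (SE 0.63, 95% interval -2.97 to -0.21, limma adjusted p = 0.403). In S3_S its mean was 1.301 ± 0.402 FPKM and the log2 fold change over S1 was -1.90 (interval -3.28 to -0.52, limma adjusted p = 0.824). In S3_C the mean was 2.38 ± 1.69 FPKM and the change over S1 -1.47 (interval -2.85 to -0.09, limma adjusted p = 0.219). In bulk tissue, fewer cells that express a gene and less RNA per cell cannot be told apart.

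The background was sparse as well. In S2 against S1, limma called 0.00733% of the 27272 genes lower, and 0 of 2 members. The same share was called lower in S3_S against S1 and in S3_C against S1, again with 0 of 2 members. At an unadjusted p under 0.05, both members were lower in S2 than in S1, beside 8.39% of all genes. CYP83B1 alone was lower at that level in S3_S (2.79% of genes) and in S3_C (15.8% of genes). The S2 and S1 libraries did not overlap, with S2 lower, for CYP83B1 and 6.7% of genes. For S3_S below S1 this held for CYP83B1 and 3.81% of genes. Over the 4 groups together, limma's moderated F was 2.00 for CYP83A1 (adjusted p = 0.524) and 3.66 for CYP83B1 (adjusted p = 0.502), where 0.00733% of genes passed. At an unadjusted p under 0.05 the F passed for CYP83B1 and for 8.15% of genes. An exact permutation test over all assignments of the 12 libraries to groups gave p = 0.241 for CYP83A1 and p = 0.0667 for CYP83B1.

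The calls depend on S1 replicate 1, and no test compared the 2 genes in this. That library holds the lowest S1 value of both genes, so leaving it out by itself raises both S1 means. Without that library, CYP83A1 was called lower in S2 (log2 fold change -3.38, limma adjusted p = 0.0055), in S3_S (-2.81, adjusted p = 0.0342) and in S3_C (-2.93, adjusted p = 0.00643) than in S1. CYP83B1 then had -2.02 in S2 (limma adjusted p = 0.0651), -2.33 in S3_S (0.0969) and -1.90 in S3_C (0.0633), and was not called. Calls were also common among all genes in that fit: 10.9% were called lower in S2, 1.03% in S3_S and 16.6% in S3_C. The moderated F of CYP83A1 was then 18.8 (limma adjusted p = 0.0196), and 8.64% of genes passed. Without S1 replicate 2, the library with both highest values, neither gene was called. The changes in S2 were then -1.11 for CYP83A1 and -0.84 for CYP83B1, both with a limma adjusted p of 0.871. That fit called 0.011% of all genes lower.

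Levels of several markers ran along with the CYP83A1 values of the S1 libraries. The vascular list, with 4 of 11 markers matched and none at 0 throughout, summed to 9.16 and 6.83 FPKM in S1 replicates 2 and 3 and 12.7 in S3_S replicate 3. It summed to between 1.44 and 2.92 FPKM in the other 9 libraries. Within the list, XCP1 had 5.67 and 2.87 FPKM in S1 replicates 2 and 3, 7.08 in S3_S replicate 3 and 0.903 or less elsewhere. CESA8 had 1.13, 1.35 and 2.03 FPKM in the same libraries and 0.626 or less elsewhere. CESA4 followed less closely, with 1.75 FPKM in S3_S replicate 2 beside 1.61 in S1 replicate 2. AST56 did not follow, and was highest in S2 replicate 3 at 1.24 FPKM. The DNA replication gene PCNA1 was at 9.10 and 12.2 FPKM in S1 replicates 2 and 3, 5.37 in S3_S replicate 3 and 0.759 or less elsewhere. CDC2B, a cell cycle kinase, had 6.52, 11.1 and 3.04 FPKM in these 3 libraries and 0.599 or less elsewhere. The cyclin CYC1 did not follow them, with 22.8, 14.5 and 19.5 FPKM in S1 replicates 1, 2 and 3 and 10.7 to 27.8 in the S2, S3_S and S3_C libraries. The cell division list (PCNA1, CYC1 and CDC2B, 3 of 3 matched) summed to 11.2 to 28.1 FPKM in S2, 18.8 to 29.7 in S3_S, 19.3 to 28.2 in S3_C and 23.1 to 42.8 in S1. LHCA4 ran the other way, with 262 and 229 FPKM in S1 replicates 2 and 3, 2047 in S1 replicate 1 and 981 or more in the S2, S3_S and S3_C libraries. SEN1, a senescence gene and the one matched of 3, had 0.172 and 0.149 FPKM in S1 replicates 2 and 3 and 257 in S1 replicate 1. Of the epidermis list 0 of 4 markers were matched, and the guard and myrosin cell list had 1 of 2, listed at 0 in 11 of 12 libraries. The part of these cell types in the CYP83A1 result was not tested.

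Outside S1 both genes were at 4.09 FPKM or less, with no call between the later groups. CYP83A1 had a log2 fold change of 0.57 in S3_S against S2, with a 95% interval of -1.41 to 2.55. It had 0.45 in S3_C against S2 (interval -1.53 to 2.43) and 0.12 in the margin S3_S against the center S3_C (-1.86 to 2.099). CYP83B1 had a difference of -0.32 in S3_S against S2 (interval -1.70 to 1.06) and had 0.12 in S3_C against S2 (-1.26 to 1.499). Between margin and center its difference was -0.43 (-1.81 to 0.94). Limma adjusted p-values of these 6 differences lay between 0.762 and 1, and 0% of all genes were called in any of the 3 comparisons. At an unadjusted p under 0.05, neither member passed. For S3_S against S3_C 7.47% of genes were then higher and 2.89% lower, for S3_C against S2 0.642% and 0.587%, and for S3_S against S2 2.04% and 1.25%. The intervals are wide, and equal levels are not shown.

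By mean FPKM, CYP83A1 ranked S1, S3_S, S3_C and S2 in falling order, and CYP83B1 ranked S1, S3_C, S2 and S3_S. By median FPKM, CYP83A1 was instead higher in S3_C (1.42) than in S3_S (1.16), and CYP83B1 higher in S2 (2.38) than in S3_C (2.33). No neighbours in these orders differed by an adjusted p under 0.05. The margin and the center, which differ in color, thus had overlapping levels of both genes. In the margin CYP83A1 had a coefficient of variation of 79.1% over 3 libraries and CYP83B1 of 30.9%, beside a median of 30.3% over all tested genes. In S1 the coefficients were 106% and 105%, above those of 92.1% and 91.9% of genes.

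**Figure D2:**
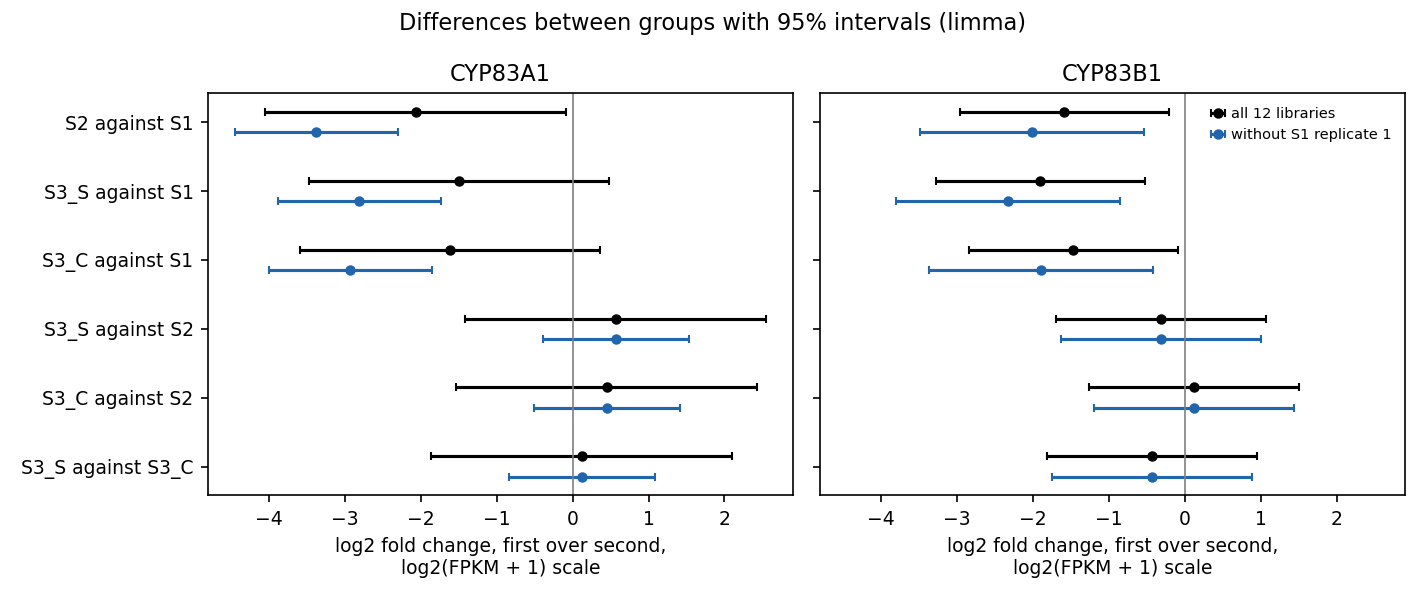
Log2 fold changes of CYP83A1 (left) and CYP83B1 (right) in 6 comparisons, with 95% intervals from limma, with all 12 libraries in black and without S1 replicate 1 in blue. The estimates of the 3 comparisons with S1 lie left of 0, and the CYP83A1 estimate for S2 against S1 is -2.07 in black and -3.38 in blue. In black, the CYP83A1 intervals for S3_S and S3_C against S1 cross 0, reaching 0.48 and 0.36.

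FPKM is per length, so the levels of the genes can be set side by side if the assembled transcripts are full length, which is not known. Only the CYP83A1 member enters here, without the second CYP83A1 entry. In S2 replicate 1 that entry had 0.575 FPKM, beside 0.351 for the member and 0.574 for CYP83B1. The counts and ratios below thus hold for the member alone. CYP83A1 exceeded CYP83B1 in 2 of 3 S1 libraries, 0 of 3 S2 libraries, 1 of 3 S3_S libraries and 1 of 3 S3_C libraries. The ratio of CYP83A1 to CYP83B1 in FPKM was 0.0163, 1.02 and 2.18 in S1 replicates 1, 2 and 3. It was 0.612, 0.144 and 0.381 in S2, 0.691, 0.575 and 2.08 in S3_S and 2.58, 0.171 and 0.347 in S3_C. Libraries of the same group stood on both sides of 1 in S1, S3_S and S3_C.

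On the log2(FPKM + 1) scale the level of CYP83A1 minus that of CYP83B1 averaged -0.38 ± 1.60 in S1, -0.86 ± 0.66 in S2, 0.02 ± 0.58 in S3_S and -0.53 ± 1.10 in S3_C (SD, n = 3 each). The exact permutation test over the 4 groups gave p = 0.774. The 6 pairs of groups had exact permutation p-values of 0.3 to 0.9 and an adjusted p of 0.9 for each, where 3 against 3 libraries cannot go below 0.1. The largest of the differences was 0.88, for S3_S against S2 (exact permutation p = 0.3).

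**Figure D3:**
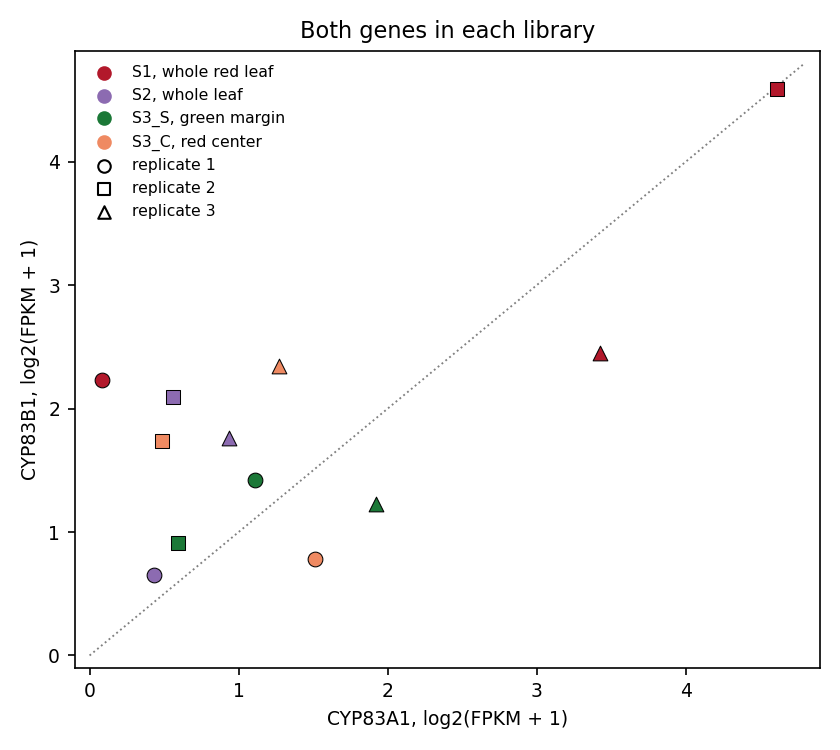
CYP83B1 (vertical axis) by CYP83A1 (horizontal axis) in each library, both as log2(FPKM + 1), with color for the group, symbol for the replicate and a dotted line where levels are equal. S1 replicate 2 lies at the top of both axes near the line, and S1 replicate 1, at 0.0602 FPKM of CYP83A1 and 3.69 FPKM of CYP83B1, lies above it.

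Over all 12 libraries r between the genes was 0.701, given only as a description and with no test, since 3 libraries stand apart. Over the other 9 libraries, Pearson's r between the genes was -0.169 (exact permutation p = 0.656) and Spearman's rho -0.05 (exact permutation p = 0.912), for 1 relation. The 3 left out have the highest CYP83A1 levels, and the other 9 reach only 1.85 FPKM. A relation at higher levels could thus not show here. Without the 2 libraries farthest from the median CYP83A1 level, S3_C replicates 1 and 3, r was -0.201 (exact permutation p = 0.669, n = 7).

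The pathway around both genes could be followed in part. Of 93 other listed glucosinolate genes, matched by Arabidopsis identifier or exact symbol, 15 had an entry and 9 were tested. None of the listed MYB and MYC regulators, side-chain modification genes or transporters was matched. In S2 against S1, 0 of the 9 were called in either direction by limma with all libraries, 8 had lower means on the log2 scale, and their median was -0.99 beside -0.09 for all genes. For S3_S against S1 the median was -0.63 and for S3_C against S1 -1.01, each with 8 of 9 below 0 and 0 called, where all genes had -0.02 and -0.18. Of all genes, 57.1% were below 0 in S2, 51.6% in S3_S and 62.6% in S3_C against S1. At an unadjusted p under 0.05, 5 of the 9 passed in S2, 0 in S3_S and 5 in S3_C against S1, beside 12.1%, 5.69% and 21.9% of all genes in these comparisons. Without S1 replicate 1, 6 of 9 were called lower in S2, 6 of 9 in S3_C and 1 of 9 in S3_S, beside 10.9%, 16.6% and 1.03% of all genes.

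The r values of pathway genes given here and below are over 12 libraries, with the 3 that stand apart. They describe these libraries and do not show shared regulation. A ribosomal protein entry reached r = 0.959 with CYP83A1. Among aliphatic partners of CYP83A1, the glutathione transferase ATGSTF11, thought to conjugate the product of CYP83A1 in Arabidopsis, had the profile closest to it (r = 0.926 over 12 libraries). It had 0.652, 0.243 and 0.176 FPKM in S2 and 0.565, 9.41 and 6.29 in S1. Its S3_S values were 1.20, 0.593 and 2.88 FPKM, so S3_S replicate 3 again stood highest outside S1. Its log2 fold change in S2 over S1 was -1.87 (SE 0.60, limma adjusted p = 0.403) and -2.70 without S1 replicate 1 (adjusted p = 0.0056). ATGSTU20, another transferase of that branch, ranged from 2.12 to 13.5 FPKM outside S1 and from 6.89 to 17.3 within it (r = 0.559 with CYP83A1). The sulfotransferase SOT17, which makes the final product, reached 1 FPKM in 2 libraries. The entry IPMI2, a chain-elongation isomerase, was below 1 FPKM throughout.

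Among indolic partners of CYP83B1, the transferase ATGSTF10 had 1.88, 0.341 and 1.49 FPKM in S2 and 1.37, 16.9 and 10.00 in S1. Its profile was closer to CYP83A1 (r = 0.784) than to CYP83B1 (r = 0.49). CYP79B3, which supplies the aldoxime to CYP83B1, stayed under 1 FPKM in all 12 libraries. The glucosyltransferase UGT74B1 passed 1 FPKM once, in S1 replicate 2.

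The tryptophan supply list had 3 tested genes. TSA1, the tryptophan synthase alpha chain, had 18.2, 23.2 and 30.5 FPKM in S2 and 30.7, 114 and 43.8 in S1, without overlap. TSB1, a beta chain, had 12.5, 17.3 and 25.8 FPKM in S2 and 21.2, 74.7 and 30.0 in S1. The second beta chain entry, Bo7g111250, had 3.73, 3.07 and 4.67 FPKM in S2 and 4.73, 11.4 and 7.96 in S1, also without overlap. S2 lay below S1 in this way for 6.7% of all genes. All 3 were highest in S1 replicate 2, as both CYP83 genes were. TSA1 had r = 0.9 with CYP83A1 and 0.858 with CYP83B1, TSB1 had 0.868 and 0.794, and Bo7g111250 had 0.825 and 0.482. Their log2 fold changes in S2 over S1 were -1.16, -0.99 and -0.85, each with a limma adjusted p of 0.403, and all 3 were called lower without S1 replicate 1 (adjusted p from 0.0295 to 0.0467), as were 10.9% of all genes.

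Of sulfate supply and breakdown, 3 genes were tested. APS3 is the name of an ATP sulfurylase, but the deposited description of this entry is that of a pseudouridine synthase family protein, so its identity is uncertain. It was at 3.08, 7.92 and 6.58 FPKM in S2 and 7.51, 17.96 and 9.49 in S1 (log2 fold change -0.87, limma adjusted p = 0.478), with r = 0.433 with CYP83A1 and 0.709 with CYP83B1. APR2, which reduces activated sulfate for cysteine synthesis, differed in the other direction, with 1.66, 11.7 and 24.6 FPKM in S2 and 3.96, 1.13 and 2.06 in S1 (1.58, adjusted p = 0.465). The myrosinase entry described as glucoside glucohydrolase 2 spans 3 annotated genes. It had 9.68, 3.28 and 2.18 FPKM in S2 and 1.71, 27.2 and 40.3 in S1 (-1.48, limma adjusted p = 0.474), with 22.5 in S3_S replicate 3. Its r was 0.798 with CYP83A1 and 0.286 with CYP83B1. Of the other matched breakdown genes, ESM1 passed 1 FPKM in 1 library and TGG1 in none.

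**Figure D4:**
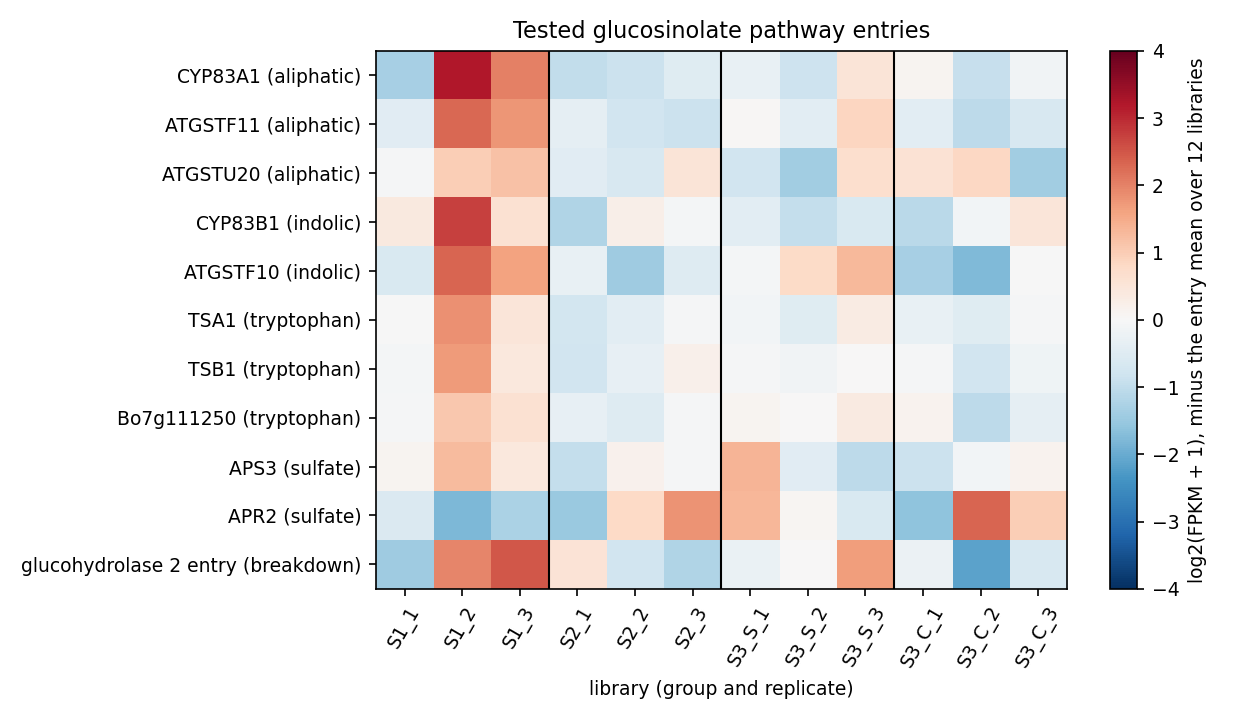
Log2(FPKM + 1) of the 11 tested glucosinolate pathway entries in each library, minus the entry's mean over 12 libraries, from blue (below the mean) to red (above). Of the 11 rows, 7 are reddest in S1 replicate 2, S1 replicate 1 is blue for CYP83A1, and APR2 is blue in all 3 S1 libraries.

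Set against other cytochrome P450 entries by group mean, the members ranked higher in S1 than in the later groups. P450 entries were found by a CYP gene name or by cytochrome P450 in the description, so P450 genes named otherwise are not counted. Among the 25 tested entries found in this way, by mean FPKM, CYP83A1 ranked number 7 in S1, 24 in S2, 21 in S3_S and 19 in S3_C. CYP83B1 ranked number 8 in S1, 17 in S2, 22 in S3_S and 16 in S3_C. The S1 means of both members lean on S1 replicate 2. CYP83A1 had 0.0602, 23.5 and 9.76 FPKM in S1 replicates 1, 2 and 3, and CYP83B1 had 3.69, 23.1 and 4.47. Ranks were not taken per library. The most abundant of these 25 entries, CYP96A8, had 174, 122 and 82.7 FPKM in S2 and 129, 90.9 and 79.8 in S1. The other 23 P450 entries had a median log2 fold change of 0.08 in S2 against S1, with 13 above 0, 10 below 0, 0 called by limma and 2 at an unadjusted p under 0.05, where 12.1% of all genes passed. Without S1 replicate 1, 3 of them were called higher and 2 lower in S2, beside 4.69% and 10.9% of all genes.

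The genes whose profiles were most like each member over the 12 libraries were ranked by Pearson's r of log2(FPKM + 1), among 4293 named or described entries with a mean of at least 5 FPKM. These values describe 12 libraries that share the same 3 unusual ones. For CYP83A1 they were the ribosomal protein entries Bo4g187080 (60S L36, r = 0.959), Bo1g151830 (40S S24, r = 0.938) and Bo1g007080 (40S S3a, r = 0.935), the ATP synthase subunit beta entry Bo9g174270 (r = 0.953) and HMT3, a homocysteine methyltransferase that forms methionine (r = 0.936). The L36 entry had 20.2, 113 and 124 FPKM in S1, so it shared the low value of replicate 1 with CYP83A1. HMT3 was listed at 0 in S1 replicate 1 and had 56.7 and 13.2 FPKM in replicates 2 and 3. The lowest r values were -0.941 for the beta-galactosidase Bo5g132160 and -0.935 for KAO2, an ent-kaurenoic acid hydroxylase of gibberellin synthesis.

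For CYP83B1 the closest entry was the adenylyl-sulfate kinase Bo3g088400 (r = 0.891), an enzyme class that makes the activated sulfate used by sulfotransferases. It had 44.3 FPKM in S1 replicate 2 and between 6.72 and 12.6 in the other 11 libraries. The Rossmann-fold protein Bo3g040000 (r = 0.859), TSA1 (0.858), the nucleoside phosphatase Bo8g106910 (0.822) and TSB1 (0.794) followed. The lowest r values were -0.85 for the disulfide isomerase-like ATPDIL2-2 and -0.805 for the tubby-like gene AtTLP2. Without S1 replicate 2, r with CYP83B1 was 0.624 for the kinase, 0.83 for Bo3g040000, 0.538 for TSA1, 0.355 for Bo8g106910 and 0.347 for TSB1. The 5 entries closest to CYP83A1 kept r between 0.848 and 0.957 without that library. Without the 3 libraries that stand apart, their r was 0.782 for Bo4g187080, 0.806 for Bo1g151830, 0.802 for Bo1g007080, 0.49 for Bo9g174270 and -0.0496 for HMT3. For those closest to CYP83B1 it was then 0.625 for Bo3g088400, 0.818 for Bo3g040000, 0.635 for TSA1, -0.246 for Bo8g106910 and 0.205 for TSB1. Of the entries with the lowest r, Bo5g132160 then had -0.321 and KAO2 -0.233 with CYP83A1. ATPDIL2-2 had -0.421 and AtTLP2 -0.835 with CYP83B1.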

How the data were processed

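The authors deposited FPKM per gene entry and library, computed from paired-end poly(A) RNA-seq. Per the submitters' processing notes, HISAT2 2.0, StringTie 1.3.0 and Bowtie 0.12.2 were used, with no roles given. Which build and filters they used is not given in the sources used here. The 27272 entries that reach 1 FPKM in 3 or more of the 12 libraries were fitted as log2(FPKM + 1) with limma 3.58.1 in R 4.3.3: 1 mean per group, eBayes with an intensity trend, two-sided tests, Benjamini-Hochberg adjustment within each of 6 comparisons, threshold 0.05. The fit was tested on simulated data. Exact permutation tests were two-sided for pairs of groups. Other work used Python 3.11.15.

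Members and lists were chosen with earlier results of these data known. Named were all entries of both genes, every tested pathway entry, the 5 most and 2 least similar entries per member, and the most abundant P450 entry. SEN1, LHCA4, CYC1 and XCP1 are the most abundant tested entries of their marker lists, a rule set beforehand. PCNA1 and CDC2B are also marker list members but were chosen after their values were seen. The remaining matched vascular markers and pathway entries too low to test were also named after their values were seen. Deviations of equal replicate numbers correlated at 0.268, 0.195 and 0.158 between S3_S and S3_C, which meets the criterion for pairing. The labels do not say what a number shares, and the other 5 comparisons did not meet it. The differences given for S3_S against S3_C are from the fit without pairing. Alternatives were other pseudocounts, filters and scalings, no trend, a replicate block, only 2 groups, and left-out libraries. Similarity without S1 replicate 2, or without the 3 libraries that stand apart, was added after the data were seen. So was the correlation of the members without these 3 libraries.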

Additional observations from a re-analysis of the deposited data

How the results depend on the processing

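Neither gene was called under another pseudocount, no filter, median-of-ratios or upper-quartile scaling, no trend, the replicate block or a fit of only the 2 groups compared. A filter of 5 FPKM in 3 libraries removes both genes. Calls came with S1 replicate 1 left out, alone (in the report) or with S3_S replicate 3. With both left out, CYP83A1 had -3.38 in S2 (limma adjusted p = 0.00151), -2.93 in S3_C (0.00242) and -3.17 in S3_S against S1 (0.00444), F was 24.7 (0.00536), and S3_S against S3_C turned to -0.24. These libraries hold the lowest CYP83A1 value and the highest outside S1. Leaving them out by itself raises the S1 mean and lowers that of S3_S, so these p-values are no separate evidence. Without 1 library each, its changes ranged from -3.38 to -1.11 (S2 against S1), -2.81 to -0.55 (S3_S against S1), -2.93 to -0.67 (S3_C against S1) and -0.24 to 0.43 (S3_S against S3_C, below 0 without S3_S replicate 3 or S3_C replicate 2), and its F from 0.649 to 18.8. CYP83B1 in S3_C against S2 ranged from -0.30 to 0.54, below 0 without S2 replicate 1 or S3_C replicate 3. The CYP83A1 to CYP83B1 ratio turned to 0.31 for S3_C against S1 with a pseudocount of 0.1 and to -0.81 for S3_S against S1 with both libraries left out. Without 1 library it ranged from -1.36 to 0.20 (S2 against S1), -0.48 to 1.08 (S3_S against S1), -1.03 to 0.53 (S3_C against S1) and -0.30 to 0.69 (S3_C against S2). None of these ratio differences passed, and the causes were not tested.

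Genes called by limma over all genes were 2 in each comparison with S1 and by F, and 0 in the others. With the replicate block they were 1 in each comparison with S1 and by F, and the block changed no call of either gene. They were also 1 in each with a pseudocount of 5, and 0 in each with the filter of 5 FPKM. With a pseudocount of 0.1 they were 2 in S3_S against S3_C. With no filter they were 1 in S2 against S1, 4 in S3_C against S1, 1 in S3_S against S1, 3 in S3_S against S3_C and 2 in S3_C against S2. With only 2 groups they were 3 in S3_S against S3_C, 1 in S3_C against S2 and 2 in S3_S against S2. With both libraries left out they were 5170 in S2, 3079 in S3_S and 6852 in S3_C against S1, and 3746 by F. Of 9 pathway genes, 5, 1 and 6 were then called in these comparisons. Without 1 library the counts ranged from 1 to 4262 (S2 against S1), 1 to 381 (S3_S against S1), 1 to 6287 (S3_C against S1), 0 to 5 (S3_S against S3_C), 0 to 4 (S3_C against S2), 0 to 2 (S3_S against S2) and 1 to 2355 (F), and those of pathway genes from 0 to 6, 0 to 1 and 0 to 6 in the comparisons with S1. At a value such as 0.0602 FPKM the precision is unknown, since fragment counts are not used here.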

Other observations

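S1 replicates 2 and 3, which correlated at r = 0.935 over all tested genes, differed for both CYP83 genes. The other entries were chosen after their values were seen, by their descriptions, and have no test. On the log2(FPKM + 1) scale CYP83B1 was 2.14 higher in S1 replicate 2 than in S1 replicate 3, a difference above that of 99.1% of tested genes, and CYP83A1 was 1.19 higher, above 97.5%. TSA1 and TSB1 were 1.36 and 1.29 higher, above 98.0% and 97.8%, where the median of all genes was -0.05. The tryptophan synthase entry Bo7g111250 was 0.47 higher, above 89.9%. ATGSTF11, ATGSTF10 and APS3 were 0.51, 0.70 and 0.85 higher. ATGSTU20 and the glucoside glucohydrolase 2 entry were lower in S1 replicate 2, at -0.17 and -0.55. The 3-isopropylmalate dehydrogenase entry Bo2g011730, of an enzyme class shared by leucine synthesis and methionine chain elongation, had 0.0597, 81.4 and 8.11 FPKM in S1 replicates 1, 2 and 3 and at most 1.77 FPKM in the other 9 libraries. The other 2 tested entries described as that enzyme are Bo6g124430 and the joined entry Bo2g095840;Bo2g095850, at 6.92 and 31.0 FPKM in S1 replicate 2 and 8.16 and 31.7 FPKM in S1 replicate 3.

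Adenylyl-sulfate kinase had 3 tested entries. Bo3g088400 and Bo9g022580 stood at 44.3 and 43.3 FPKM in S1 replicate 2 and at 12.6 and 11.4 FPKM in S1 replicate 3. The third, Bo3g096460, had 2.21 and 2.11 FPKM in these libraries and its highest value, 13.3 FPKM, in S3_C replicate 2. The 2-isopropylmalate synthase entries Bo5g025510 and Bo8g104370 had 14.2 and 11.8 FPKM in S1 replicate 2 and 17.2 and 12.8 FPKM in S1 replicate 3. Of 6 tested entries described as sulfotransferase, 4 were higher in S1 replicate 2 and 2 lower, from -0.18 to 1.20 on the log2(FPKM + 1) scale, and APR2 had -0.52. Of all 27272 tested genes, 11697 were higher in S1 replicate 2 than in S1 replicate 3.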
